A study of Mus musculus with 2 samples.

Results

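The promoters of 10 genes of the piRNA pathway were examined for DNA methylation in mouse embryonic stem cells (mESCs) with 2 X chromosomes (XX) or 1 X chromosome (XO). The genes were *Piwil1*, *Piwil2*, *Tdrd1*, *Tdrd9*, *Tdrkh*, *Mov10l1*, *Mael*, *Asz1*, *Ddx4* and *Pld6*, out of 21938 protein-coding genes of the GENCODE M21 annotation. A promoter was taken as every cytosine of a CpG that was listed in the methylation table and lay within 1 kb of any annotated transcription start of the gene. This gave 212 CpG cytosines in 15 separate stretches, out of 1782730 cytosines in the table, and each gene had at least 4. The rest of each gene between its annotated ends served as the contrast and is called the gene body.

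The cells were female Xmas mESCs of the C57/Bl6 strain, in which reporter alleles on the X chromosomes allow cells to be sorted by FACS. Both groups were grown by the modified culture method for 7 passages according to the sample labels, whereas the published methods give a different number. They were separated by their reporter alleles into XX and XO cells, and each karyotype was measured in 1 library by reduced representation bisulfite sequencing (RRBS). RRBS reads short fragments that begin at CCGG, and %mCpG gives, for each cytosine, the share of reads in which it escaped bisulfite conversion, in percent. No reads per cytosine were given, so the depth is unknown, a value of 0% can rest on few reads, and without replicates no difference between the karyotypes could be tested. Cytosines close together on a strand can share reads, so they are not replicates of a karyotype. Differences are given throughout as XX minus XO, in percentage points.

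PIWI proteins bind piRNAs, small RNAs that guide the silencing of transposons in the germ line, where they direct both cleavage of transposon transcripts and DNA methylation of transposon copies in fetal male germ cells. The PIWI proteins work with Tudor domain proteins that recognise their methylated arginines, with RNA helicases, and with proteins anchored on mitochondria, where piRNA precursors are cut. Many germline genes carry methylated promoters in somatic cells, and mESCs with both X chromosomes active are known for low global DNA methylation. RRBS does not measure expression, and no transcript level is given here.

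Genomic sequences that hold some of the listed cytosines of 9 genes are shown so that the density of CpGs and of the CCGG sites can be read beside the values. They are from GRCm38, written 5′ to 3′ on the strand of the gene. A capital C is a listed cytosine on the printed strand, and a capital G marks a listed cytosine of the opposite strand. Stretches annotated as untranslated exon are not printed, and some other pieces of these genes are also left out. The pieces of *Mov10l1*, *Piwil1* and *Tdrd9* come first because these genes hold the promoter differences of over 10 points and the strand gap described below, followed by pieces upstream of the outermost start. A Tdrd1 upstream piece with a larger difference is added last, although it holds 1 listed cytosine.
Mov10l1, first intron, chr15:88983604-88983676 (+): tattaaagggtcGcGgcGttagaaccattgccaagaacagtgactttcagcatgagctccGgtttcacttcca
Mov10l1, near an internal start, chr15:89021168-89021350 (+): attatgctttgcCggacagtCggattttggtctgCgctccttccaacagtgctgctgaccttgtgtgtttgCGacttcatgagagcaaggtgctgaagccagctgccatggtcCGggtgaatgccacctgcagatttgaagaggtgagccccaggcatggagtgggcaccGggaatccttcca
Piwil1, intron, chr5:128703264-128703354 (+): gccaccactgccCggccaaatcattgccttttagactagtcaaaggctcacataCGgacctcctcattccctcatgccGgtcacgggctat
Tdrd9, coding exon, chr12:111971741-111971848 (+): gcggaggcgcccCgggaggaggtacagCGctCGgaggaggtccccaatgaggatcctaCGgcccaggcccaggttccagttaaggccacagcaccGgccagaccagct
Asz1, upstream, chr6:18109062-18109189 (−): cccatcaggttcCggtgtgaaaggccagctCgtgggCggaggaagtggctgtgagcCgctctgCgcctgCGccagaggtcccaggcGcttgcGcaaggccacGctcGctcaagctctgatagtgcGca
Piwil2, upstream, chr14:70429384-70429571 (−): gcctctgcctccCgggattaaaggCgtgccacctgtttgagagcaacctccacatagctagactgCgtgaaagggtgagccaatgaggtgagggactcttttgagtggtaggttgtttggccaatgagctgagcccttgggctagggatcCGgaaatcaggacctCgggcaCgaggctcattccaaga
Pld6, upstream, chr11:59787646-59787722 (−): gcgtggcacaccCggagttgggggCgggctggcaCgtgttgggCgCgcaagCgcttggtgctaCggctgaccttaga
Mael, upstream, chr1:166238748-166238786 (−): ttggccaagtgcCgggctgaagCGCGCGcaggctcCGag
Tdrkh, upstream, chr3:94413056-94413126 (+): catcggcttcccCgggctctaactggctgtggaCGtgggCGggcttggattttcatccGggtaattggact
Tdrd1, upstream, chr19:56825348-56825372 (+): tctgtgaggagcCggggagagggag

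Methylation was lower in XX at 8 of the 10 promoters and higher at 2, *Piwil2* and *Ddx4*. Among all 14685 protein-coding promoters with at least 5 CpGs, 71.7% were lower and 28.2% higher in XX. The median difference over the 10 genes was −6.62 points, and over the 9 genes with at least 5 CpGs −6.45 points, beside −2.01 points over all promoters, with quartiles of −5.36 and 0.30. The 9 genes had higher levels, with a median over genes of 18.8% in XO and 13.99% in XX, beside 10.6% and 8.52% over all promoters. Thus most of the piRNA pathway promoters lay on the same side as most promoters of the genome.

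A difference of at least 10 points was found at 2 of the 10 promoters, *Mov10l1* and *Piwil1*, both lower in XX. *Mov10l1* was the only one of the 9 genes with at least 5 CpGs, where the share over all promoters was 11.9%. None was at least 10 points higher in XX, as were 1.3% of all promoters. Both genes had all their listed cytosines more than 200 bp from any annotated start. Of the 7 genes with at least 5 CpGs within 200 bp of a start, none was 10 points lower, beside 10% of the 12906 genes that could be assessed in the same way. The 7 differences ran from −9.61 to 2.97 points with a median of −2.31, beside −1.24 over all those genes.

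**Figure D1:**
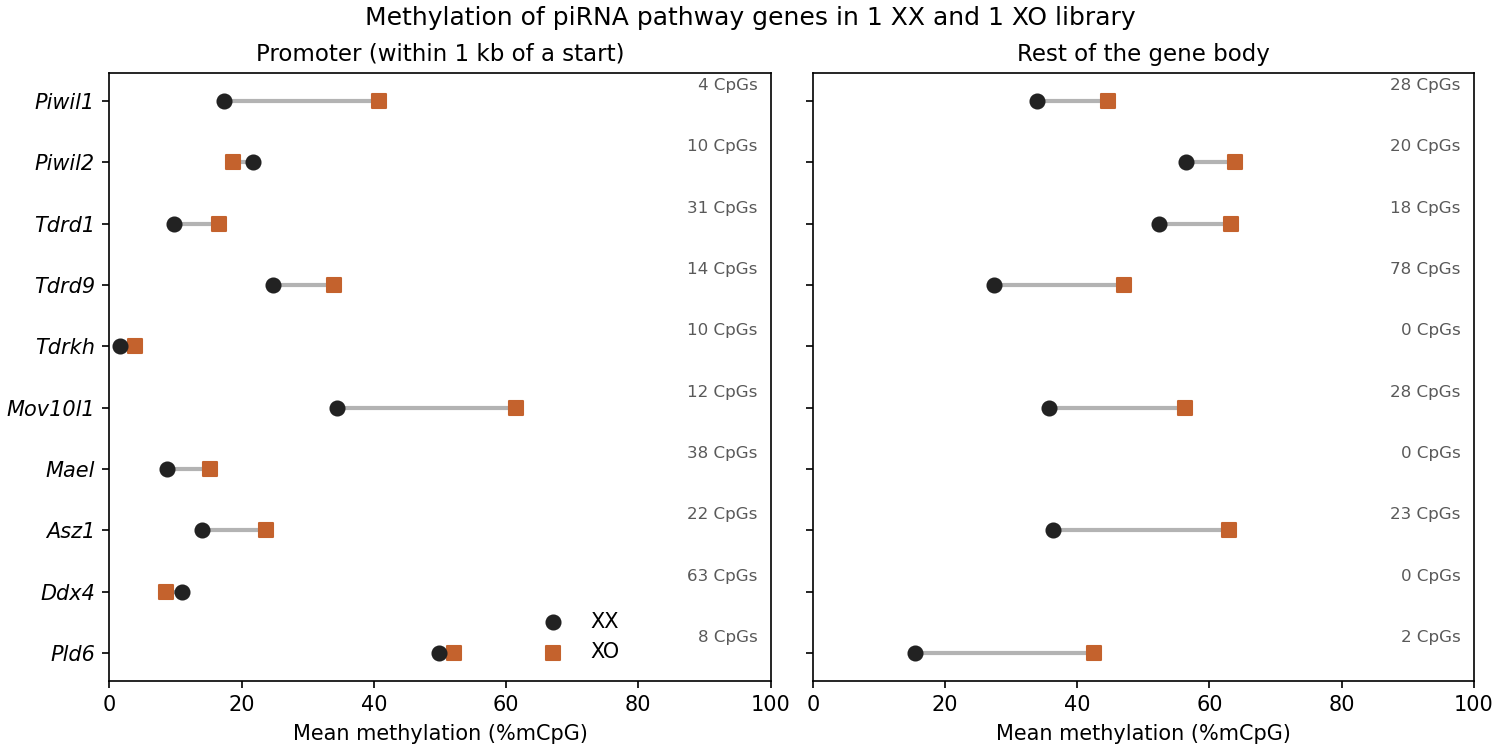
Mean methylation (%mCpG, x axes from 0 to 100) of each piRNA pathway gene in the XX library (black circles) and the XO library (orange squares), for the promoter (left) and the rest of the gene body (right), with the number of listed CpG cytosines at the right of each line. The long promoter lines are those of Piwil1 and Mov10l1, and Tdrkh, Mael and Ddx4 have no listed gene body CpG.

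A promoter level of at least 20% in XO was found at 5 genes, *Piwil1*, *Tdrd9*, *Mov10l1*, *Asz1* and *Pld6*. Over all promoters with at least 5 CpGs the share was 21.9%, and 4 of the 9 piRNA pathway genes with that many CpGs reached it. Of the promoters that reached it, 49.5% were at least 10 points lower in XX, and among the 4 piRNA pathway genes this held for *Mov10l1* alone. The promoter of *Mov10l1* had a higher XO level than 98.2% of all promoters, and that of *Pld6* than 96.8%. Of the 12 *Mov10l1* cytosines, 8 lie near an internal start, 7 of these in a coding exon. None of the 12 lies within 200 bp of any start. At the other end, *Tdrkh* exceeded 12.8% of all promoters.

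**Figure D2:**
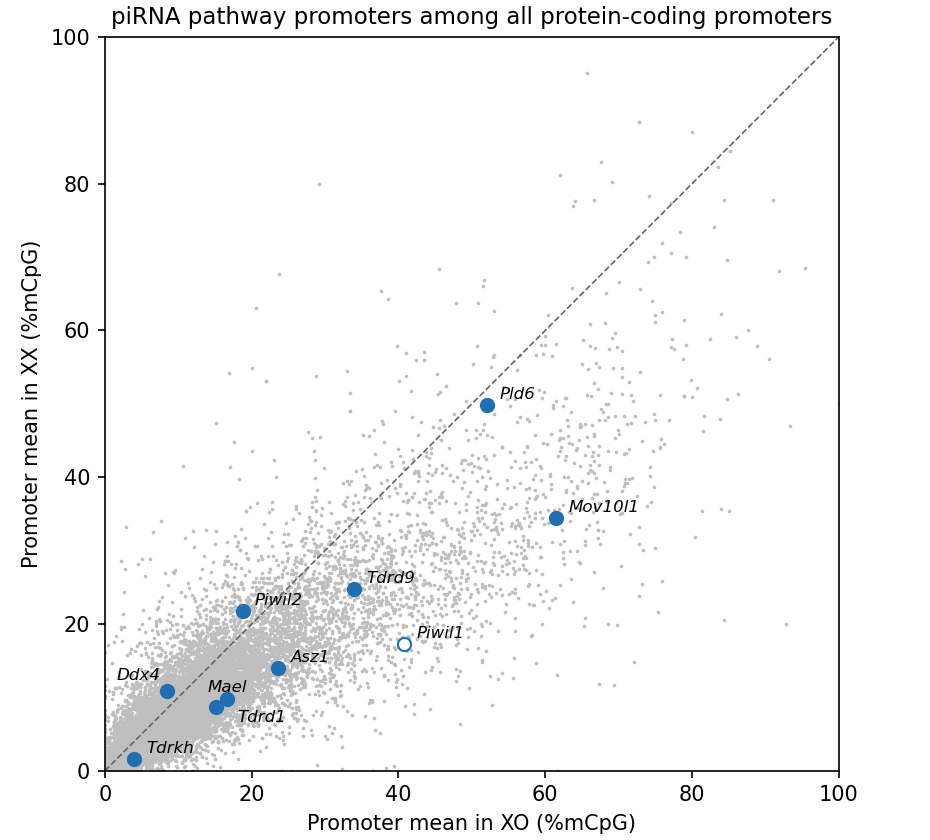
Promoter mean in XX (y axis, %mCpG) against that in XO (x axis, %mCpG) for each protein-coding gene with at least 5 listed promoter CpGs (grey points) and for the 10 piRNA pathway genes (blue), with the dashed line at equal values. Piwil1 is drawn open because it has 4 CpGs, and Piwil2 and Ddx4 are the genes of the pathway that lie above the line.

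The PIWI genes come first. *Piwil1* (chr5:128702524-128755474, forward strand, ENSMUSG00000029423.10) encodes MIWI, the PIWI protein of spermatocytes and round spermatids. Its promoter mean was 17.3% in XX and 40.7% in XO, a difference of −23.4 points over 4 cytosines, the fewest of the 10 genes. These lie in an intron, 752 to 818 bp downstream of the outermost of 3 annotated starts.
In order along the gene the values were 8.33%, 22.7%, 17.5% and 20.6% in XX. In XO they were 59.3%, 18.5%, 28.4% and 56.8%. The outer cytosines of the stretch differed most, and the second was higher in XX. The forward strand differed by −23.4 points and the reverse strand by −23.5 points, with 2 cytosines each. The start that RefSeq gives for *Piwil1* lies 33722 bp further downstream, and 0 cytosines were listed within 1 kb of it or of the other 2 GENCODE starts. Leaving out each cytosine in turn gave differences from −32.7 to −14.3 points. The *Piwil1* values thus describe the neighbourhood of the outermost start only.

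*Piwil2* (chr14:70372477-70429383, reverse strand, ENSMUSG00000033644.5) encodes MILI, the PIWI protein that is present from fetal male germ cells onward. Its mean was 21.7% in XX and 18.8% in XO over 10 cytosines, a difference of 2.97 points, with 5 cytosines lower and 5 higher in XX. The sign varied along the promoter. From 176 to 123 bp upstream, 3 reverse-strand cytosines were at 29.0%, 30% and 25.8% in XX and at 29.2%, 54.2% and 37.5% in XO. Closer to the start most cytosines were higher in XX. At 38, 23 and 17 bp upstream, the same strand had 27.3% at each in XX, and 19.2%, 7.69% and 7.69% in XO. At 72 and 89 bp downstream, on the forward strand, XX had 20% and XO 6.25% at both. The other 2 cytosines, both on the forward strand, were lower in XX, with 10.5% against 13.3% at 37 bp upstream and 0% against 6.25% at 127 bp downstream. Without the 3 cytosines in repeats the *Piwil2* difference was 8.60 points (7 cytosines). Of all promoters, 91.2% had a lower value of XX minus XO than *Piwil2*.

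The Tudor domain genes differed widely in level. *Tdrd1* (chr19:56826209-56870012, forward strand, ENSMUSG00000025081.13) encodes a binding partner of MILI. Its promoter mean was 9.83% in XX and 16.6% in XO over 31 cytosines, a difference of −6.78 points, with 16 lower, 9 higher and 6 equal. The promoter held a methylated upstream side and a nearly unmethylated downstream side. The 4 upstream cytosines averaged 61.9% in XX and 68.1% in XO. Of these, the 3 at 165 to 156 bp upstream averaged 69.7% in XX and 66.7% in XO. The 1 at 849 bp upstream was at 38.5% in XX and 72.2% in XO. The 27 cytosines from 139 to 312 bp downstream averaged 2.12% in XX and 8.99% in XO. Within these, those 100 to 199 bp downstream were at 3.55% in XX and 18.4% in XO over 8 cytosines, and those 200 to 299 bp downstream at 1.60% and 5.29% over 18. The XO methylation downstream of the start was therefore highest at the edge nearest to it. The forward strand differed by −10.7 points (14 cytosines) and the reverse strand by −3.53 points (17 cytosines).

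*Tdrd9* (chr12:111971559-112068854, forward strand, ENSMUSG00000054003.13) encodes a helicase with a Tudor domain that works with MIWI2, the nuclear PIWI protein. Its promoter mean was 24.8% in XX and 34.0% in XO over 14 cytosines, a difference of −9.20 points. The cytosines fell into 2 stretches. The first, printed above, lies in a coding exon 194 to 277 bp from the outermost start, and its 8 cytosines averaged 28.1% in XX and 41.2% in XO, a difference of −13.1 points. The second lies near the start of a transcript with a retained intron 41507 bp into the gene, and its 6 cytosines averaged 20.3% and 24.3%, a difference of −4.04 points. The forward strand differed by −0.76 points and the reverse strand by −17.6 points, with 7 cytosines each. In the first stretch the reverse strand had 25%, 28.1%, 28.1% and 9.38% in XX against 45.2%, 41.9%, 32.3% and 41.9% in XO. The forward strand had 18.6%, 56.5%, 40.7% and 18.6% in XX against 12.7%, 53.7%, 50.9% and 50.9% in XO.

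*Tdrkh* (chr3:94413273-94434668, forward strand, ENSMUSG00000041912.12) encodes a Tudor domain protein of mitochondria that takes part in trimming piRNA precursors. It was the least methylated of the 10, at 1.59% in XX and 3.93% in XO over 10 cytosines, a difference of −2.34 points. The 6 upstream cytosines averaged 1.85% in XX and 1.39% in XO, and 4 of them were at 0% in both. The 4 intronic cytosines, 292 to 351 bp downstream, were at 0%, 0%, 0% and 4.76% in XX and at 8.33%, 5.56%, 7.32% and 9.76% in XO. Each of these 4 was higher in XO, at low levels.

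**Figure D3:**
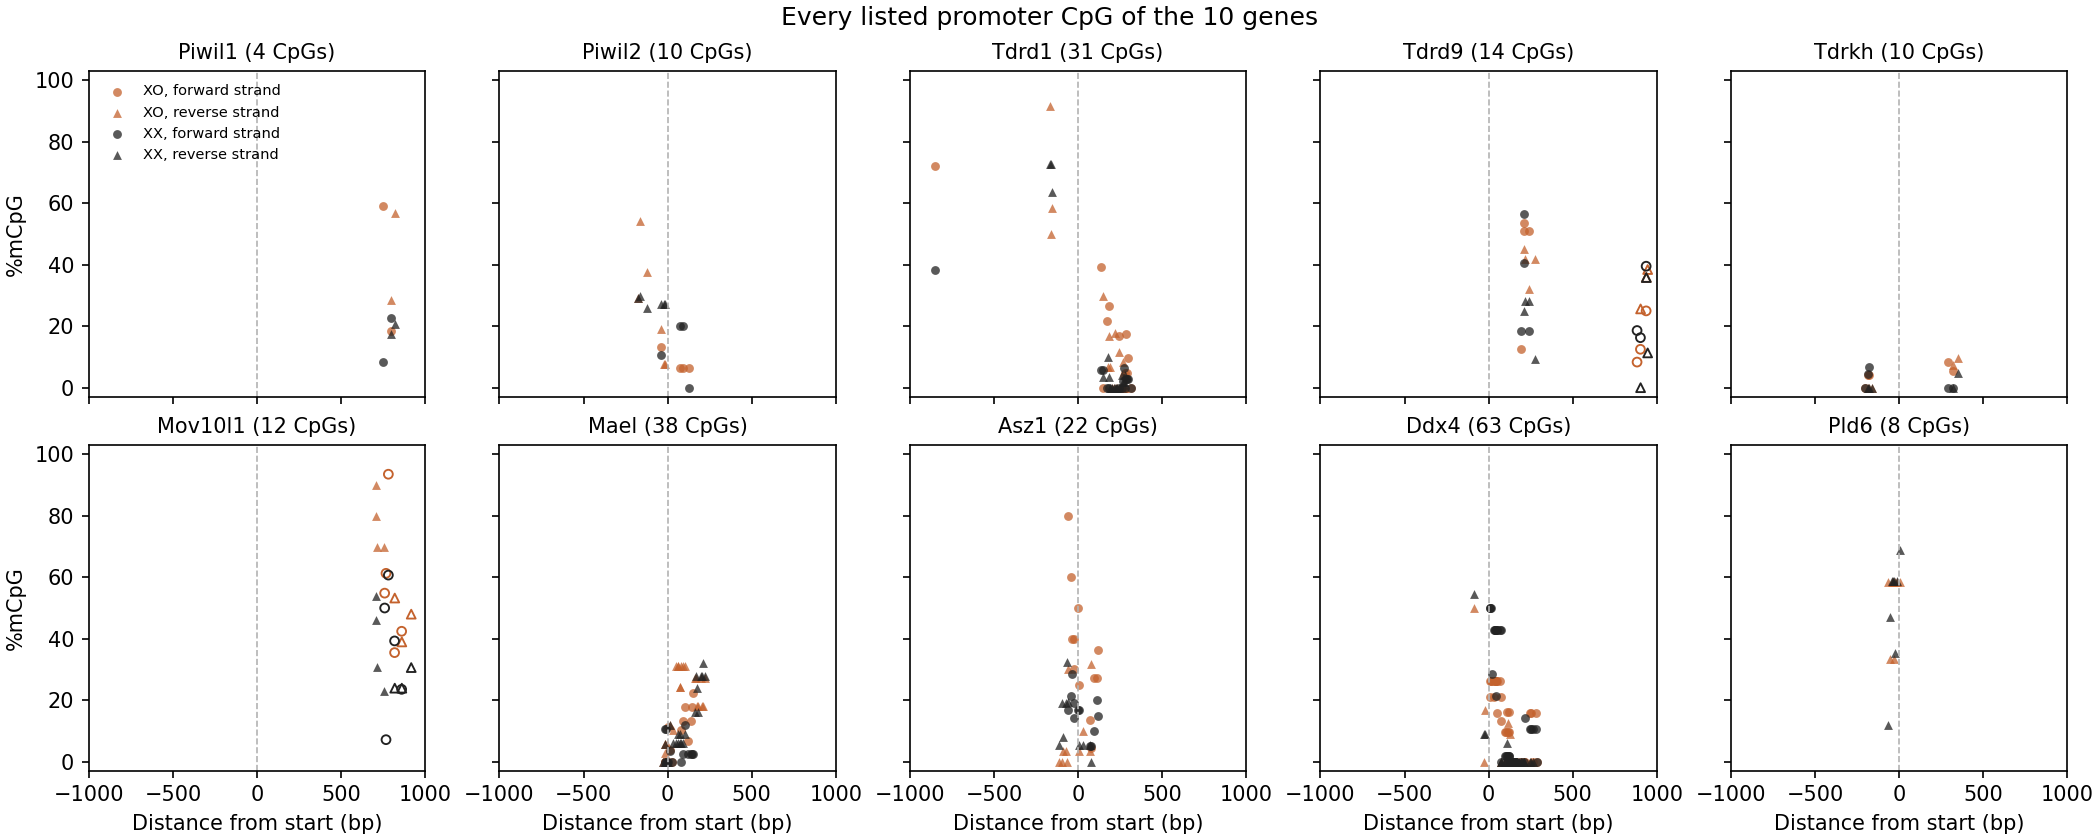
Methylation of every listed promoter CpG (y axes, %mCpG) against its distance from the outermost start in bp (x axes, negative upstream), in XX (black) and XO (orange), with circles for the forward and triangles for the reverse strand. Open symbols, in Tdrd9 and Mov10l1, are CpGs near an internal start and are placed by their distance from that start.

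The helicase genes held both the promoter with the largest difference and one of those that were higher in XX. *Mov10l1* (chr15:88982909-89055152, forward strand, ENSMUSG00000015365.15) encodes a helicase that feeds single-stranded precursors into piRNA production. Its promoter mean was 34.4% in XX and 61.5% in XO over 12 cytosines, a difference of −27.1 points, and 11 of the 12 were lower in XX. Only 1.65% of all promoters had a larger difference in that direction. The 4 cytosines in the first intron lie 707 to 755 bp from the outermost start, all on the reverse strand. They were at 46.2%, 53.8%, 30.8% and 23.1% in XX and at 80%, 90%, 70% and 70% in XO, a mean difference of −39.0 points.
The other 8 lie 759 to 917 bp past the start of a noncoding processed transcript 37512 bp into the gene. Of these 8, 7 lie in a coding exon. They averaged 32.4% in XX and 53.5% in XO over all 8, a difference of −21.1 points. The cytosine furthest apart in this stretch was at 7.14% in XX and 61.3% in XO, and its neighbours on the same strand were at 50% and 60.7% in XX and at 54.8% and 93.5% in XO. Leaving out each of the 12 cytosines in turn gave differences from −29.9 to −24.6 points. The 300 bases upstream of the outermost start hold 17 CpGs, but no cytosine within 200 bp of a start of *Mov10l1* was listed. The listed cytosines were 3.17% of those within 1 kb of the outermost start, the lowest share of the 10 genes, beside a median of 14.9% over all genes.

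*Ddx4* (chr13:112598333-112652475, reverse strand, ENSMUSG00000021758.14) encodes the mouse Vasa helicase, a widely used germ cell marker. It had the most cytosines, 63, and the highest share listed, 34.6%. Its mean was 10.9% in XX and 8.50% in XO, a difference of 2.43 points, with 14 lower, 17 higher and 32 at 0% in both libraries. The first 100 bp downstream of the outermost start were set apart from the rest. There, 15 forward-strand cytosines averaged 36.3% in XX and 22.6% in XO, a difference of 13.7 points, and 12 of them were higher in XX. In the same 100 bp, 3 reverse-strand cytosines were at 0% in both. From 100 to 199 bp downstream, 30 cytosines on both strands averaged 0.49% in XX and 2.76% in XO. The higher mean of *Ddx4* in XX thus rested on forward-strand cytosines of a short stretch. From 7 to 66 bp downstream no reverse-strand cytosine was listed, so the strands cannot be compared there. The 3 reverse-strand cytosines of the first 100 bp lie at 71, 75 and 98 bp. Beside them, the forward strand at 72, 76 and 99 bp was at 42.9%, 0% and 1.75% in XX. The 63 cytosines held 21 distinct pairs of values. The forward strand over the promoter differed by 4.39 points and the reverse strand by −0.36 points.

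The genes of the mitochondrial and nuage proteins follow. *Asz1* (chr6:18050964-18109061, reverse strand, ENSMUSG00000010796.11) encodes GASZ, a scaffold of germ granules at mitochondria. Its mean was 13.99% in XX and 23.6% in XO over 22 cytosines, a difference of −9.61 points. The strands went opposite ways: −20.5 points over 12 forward-strand cytosines and 3.42 points over 10 reverse-strand cytosines. In the 128 bases upstream that are printed above, the 6 forward-strand cytosines ran from 14.3% to 28.6% in XX and from 30% to 80% in XO. Their means were 19.4% and 50%. The 6 reverse-strand cytosines of the same sequence averaged 17.2% in XX and 6.11% in XO. At the CpG 59 and 58 bp upstream, where both strands were listed, the reverse strand had 19.4% in XX and 30% in XO, and the forward strand 16.7% and 80%. No value per read was given with which to weigh the strands, and no cause of the gap between them was tested.

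*Pld6* (chr11:59783897-59787645, reverse strand, ENSMUSG00000043648.7) encodes MitoPLD or Zucchini, the mitochondrial nuclease that cuts piRNA precursors. Its promoter was highly methylated and similar in mean in the libraries, at 49.8% in XX and 52.1% in XO over 8 cytosines, a difference of −2.31 points. All 8 were on the reverse strand, from 65 bp upstream to 5 bp downstream. In XX they were at 11.8%, 47.1%, 58.8%, 58.8%, 58.8%, 35.3%, 58.8% and 68.8% from upstream to downstream. In XO the same cytosines were at 58.3%, 33.3%, 58.3%, 58.3%, 33.3%, 58.3%, 58.3% and 58.3%. Of these, 2 were lower and 6 higher in XX, and without the outermost, at −65 bp, the difference was 4.01 points. The 8 cytosines held 6 distinct pairs of values.

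*Mael* (chr1:166201201-166238747, reverse strand, ENSMUSG00000040629.8) encodes Maelstrom, a nuage protein needed for transposon silencing in spermatocytes. Its mean was 8.69% in XX and 15.1% in XO over 38 cytosines, a difference of −6.45 points, with 23 lower, 8 higher and 7 equal. The 9 upstream cytosines averaged 3.03% in XX and 2.29% in XO. The difference lay downstream of the start, where 29 cytosines averaged 10.4% in XX and 19.13% in XO. In the first 100 bp, 12 of 15 cytosines were lower in XX and none higher, with means of 4.82% and 17.6%. From 200 bp on, the order was the opposite, with 29.3% in XX and 21.2% in XO over 3 cytosines. The forward strand differed by −4.81 points (14 cytosines) and the reverse strand by −7.40 points (24 cytosines).

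**Figure D4:**
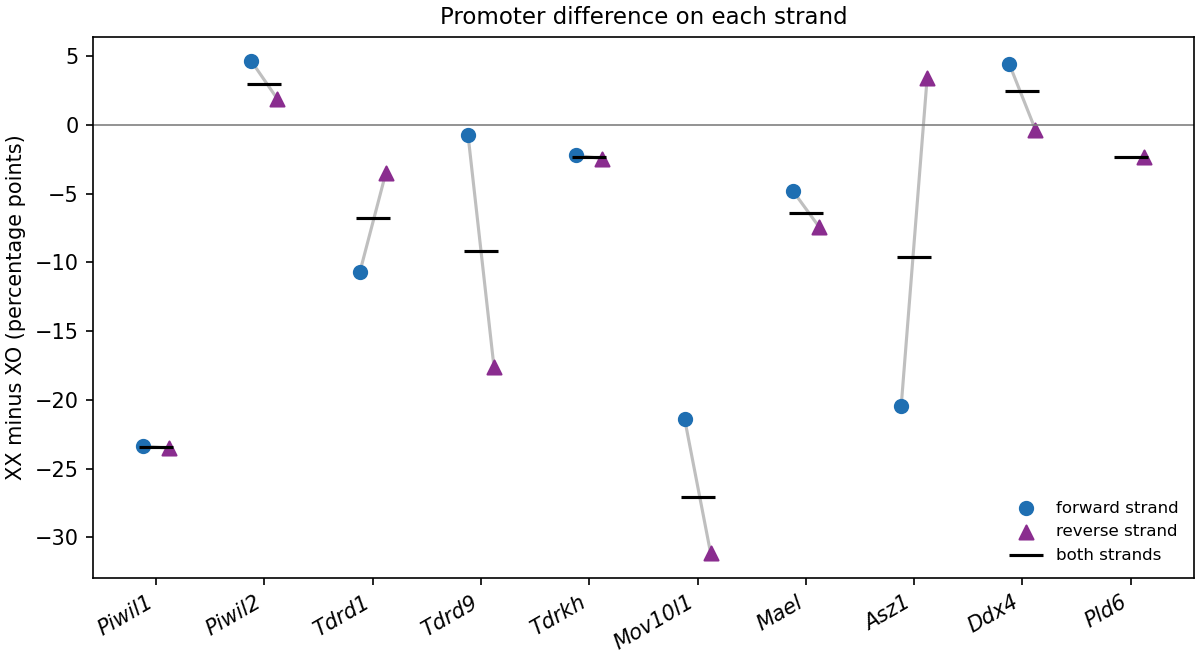
Promoter difference, XX minus XO in percentage points (y axis), of each gene for forward-strand CpGs (blue circles), reverse-strand CpGs (purple triangles) and both together (black bars). The strands are farthest apart in Asz1 and Tdrd9, and Pld6 has reverse-strand CpGs only.

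The spread between the strands of one CpG gives a scale for the single values. Both strands were listed for 55 CpGs of the 10 promoters, and the median gap between them was 3.33 points in XX and 8.54 points in XO. Over the 426739 such CpGs in the table the medians were 3.23 and 4.17 points. The difference between XX and XO, taken on each strand of a CpG, varied between the strands with an SD of 15.5 points in these promoters and 15.7 points in all. By gene, the SD was 1.13 points in *Tdrkh* (3 CpGs), 9.14 in *Ddx4* (22), 9.27 in *Mael* (9) and 17.0 in *Tdrd1* (8). It was 22.6 in *Tdrd9* (5), 26.2 in *Mov10l1* (2) and 34.7 in *Asz1* (4). The SD is a scale and no bound, so a larger difference at a single cytosine can also lie within the spread of the strands.

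The gene bodies gave the contrast. A body CpG was listed for 7 of the genes, and the mean was lower in XX in all 7. Most gene bodies went the same way, with quartiles of −21.4 and −9.27 points over the 11755 with at least 5 CpGs. In the order of XX and then XO, it was 33.9% and 44.7% in *Piwil1* (28 cytosines), 56.5% and 63.8% in *Piwil2* (20), 52.4% and 63.3% in *Tdrd1* (18), and 27.4% and 47.1% in *Tdrd9* (78). It was 35.7% and 56.3% in *Mov10l1* (28), 36.4% and 63.0% in *Asz1* (23), and 15.4% and 42.6% in *Pld6* (2). Among the 6 with at least 5 body CpGs, 5 were at least 10 points lower in XX, and *Piwil2* differed by −7.34 points. Over 11755 gene bodies the share was 72.6%. The median over these 6 was −15.2 points, beside −15.7 over all gene bodies. In *Tdrd9* each of the 17 body stretches was lower in XX, with differences from −58.4 to −0.64 points, as were the 6 of *Mov10l1* and the 2 of *Asz1*. Some stretches hold only 1 or 2 cytosines. The share of stretches lower in XX over all gene bodies was not counted, so these counts set no gene apart. In *Piwil2* 3 of 11 stretches were higher in XX, by up to 42.8 points in a stretch of 1 cytosine. Also higher were 1 of 10 in *Piwil1* (17.2 points, 2 cytosines) and 1 of 6 in *Tdrd1* (13.1 points, 4 cytosines).

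Promoter and body could be set side by side, with at least 5 CpGs in each, for 5 genes. The promoter was below the body in XO in *Piwil2*, *Tdrd1*, *Tdrd9* and *Asz1*, by 13.1 to 46.7 points, whereas that of *Mov10l1* was 5.19 points above its body. Over all genes with that many CpGs, 91.3% had the promoter below the body. In XX, the *Mov10l1* promoter was at 34.4% and its body at 35.7%. The *Mov10l1* promoter value mixes the outermost start, at 38.5% in XX and 77.5% in XO, with the internal start, at 32.4% and 53.5%. *Piwil2* had a body difference of −7.34 points and a promoter difference of the other sign. For *Tdrkh* and *Ddx4*, which had no listed body CpG, cytosines within 10 kb of the gene and over 1 kb from any protein-coding start were at 36.1% in XX and 77.4% in XO (3 cytosines), and at 17.3% and 43.4% (12 cytosines). The flanks of both genes were lower in XX, whereas their promoters differed by −2.34 and 2.43 points.

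The base composition of the promoters varied. In the 300 bases upstream of the outermost start, the number of CpGs ran from 2 in *Piwil1* to 23 in *Tdrkh*, beside a median of 9 over all genes. The ratio of observed to expected CpGs ran from 0.11 in *Piwil1* to 0.92 in *Asz1*, beside a median of 0.47. Whether the listing or the level followed these values across the genes was not tested, and single genes are given as examples. *Mov10l1*, with 17 CpGs, had no listed cytosine within 200 bp of a start, *Ddx4*, with 8, had the most listed, and *Asz1* and *Tdrkh*, with ratios of 0.92 and 0.91, had 23.6% and 3.93% in XO. Of the 212 cytosines, 9 (4.25%) were in repeats, as marked in lower case in the reference, beside 3.18% over all protein-coding promoters. They included the *Piwil1* cytosine with 8.33% in XX and 59.3% in XO and the 2 *Mov10l1* cytosines at 707 and 709 bp. Without its repeat cytosine, *Piwil1* differed by −14.3 points (3 cytosines), and without its 2 repeat cytosines *Mov10l1* differed by −25.5 points (10 cytosines).

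The same 300 bases were searched on both strands for CACGTG, the E-box bound by helix-loop-helix factors, and for GCGGGA, an E2F-type motif. Both factor families are known as partners in a Polycomb complex that represses germline genes in mESCs. CACGTG was present in 5 of the 10 genes, *Tdrd1*, *Tdrd9*, *Mov10l1*, *Mael* and *Pld6*, and in 7.24% of all 21938. GCGGGA was present in *Mael* alone and in 21.6% of all. A listed cytosine lay within a CACGTG in the printed *Pld6* sequence, 43 bp upstream, at 58.8% in XX and 58.3% in XO. Both cytosines of a CACGTG in *Ddx4*, 138 and 139 bp downstream of the outermost start, were at 0% in XX and XO. A match of letters is a description and no evidence of binding.

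A wider list of 19 other piRNA pathway genes was set beside the 10. At least 5 promoter CpGs were listed for 16 of them, 13 lower and 3 higher in XX (71.7% and 28.2% over all promoters). Their median difference was −4.79 points, with median levels of 13.5% in XO and 7.47% in XX. A difference of at least 10 points was found at 4 of the 16, lower in XX at each, beside 11.9% of all promoters. The 3 with the largest differences were *Stk31*, a Tudor domain gene, at 48.3% in XX and 81.7% in XO (5 cytosines), *Tex19.1*, at 2.47% and 16.3% (15), and *Fkbp6*, which encodes a cochaperone of piRNA production, at 12.5% and 26.0% (20). The 3 that were higher in XX were *Piwil4*, which encodes the nuclear PIWI protein MIWI2, at 78.3% in XX and 74.1% in XO (6), *Rnf17* at 4.92% and 4.13% (32), and *Tex15* at 13.39% and 13.37% (67). The *Piwil4* strands differed by −7.67 and 16.1 points, so its direction was not shared by them. In the 13 of the 19 genes with at least 5 body CpGs, 11 bodies were at least 10 points lower in XX, beside 72.6% of all gene bodies, and the median difference was −20.0 points.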

How the data were processed

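RRBS was performed on FACS-sorted XX and XO Xmas mESCs, with 1 library each. The authors deposited a table with the percent methylation of each CpG cytosine in both libraries, each strand of a CpG on a row of its own. The submitters' processing notes name bcl2fastq, Bismark and mm10. Versions and any coverage minimum are not given in the sources used here. All 1782730 rows had both values and no row was removed. All but 51 positions lay on a CpG of GRCm38.p6. Python 3.11.15, numpy 2.4.6 and pandas 2.3.3 were used.

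CpGs were assigned to GENCODE M21 genes, and a gene's value was the plain mean over its CpGs. CpGs within 100 bp of the next formed a stretch. No test was possible with 1 library a karyotype, so thresholds of 10 points and of 20% in XO, and comparison with all promoters with at least 5 CpGs, took its place. The genes named were all 10, and from the other piRNA list the 3 furthest lower and the 3 furthest higher in XX. From a list of 10 other germline genes the 2 furthest lower in XX were named. *Smc1b* of that list was added after its values were seen. Genes and lists were chosen with earlier results of these data known. The 100 bp bins, RefSeq starts, repeats, CACGTG cytosines and leaving out single CpGs were added after seeing the data. Averaging was tested on simulated data. Other experiments were not analysed here.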

Additional observations from a re-analysis of the deposited data

How the results depend on the processing

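The median promoter difference of the 10 genes, −6.62 points, was negative in each alternative run, and no summary changed sign. It ran from −7.92 points without CpGs at exactly 0% or 100% in both libraries to −2.995 points on the reverse strand only. With a window of 500 bp it was −4.11 points (8 genes), and on the forward strand only −4.81 points (9 genes). Each value stayed within the tolerance of 5 points, which is wide beside a median of −6.62 points. The count of promoters at least 10 points lower in XX, 2 in the main analysis, was 1 with a window of 500 bp (*Tdrd9*, at −13.1 points, among the 8 genes with a value, since *Piwil1* and *Mov10l1* had no CpG there), 4 on the forward strand only, 4 with medians over CpGs and 6 with a threshold of 5 points. It was 1 among genes with at least 5 CpGs and 3 without CpGs in repeats, with *Tdrd9* at −11.02 points. These alternatives, counting equal value pairs of a strand once, and leaving out each CpG in turn were chosen after seeing the data. The count at or above 20% in XO, 5, was 3 with 500 bp and 8 with a threshold of 10%. The median gene body difference, −19.7 points over 7 genes, was −10.5 points over 10 genes with all CpGs between the gene ends. That run takes in promoter CpGs, and with them *Tdrkh*, *Mael* and *Ddx4*, and its value lay outside the tolerance. The sign of the difference changed under some alternatives in *Piwil2* (−0.46 to 16.0 points), *Asz1* (−20.5 to 3.42), *Ddx4* (−0.36 to 4.93) and *Pld6* (−6.29 to 4.01). *Mov10l1* (−39.0 to −21.4) and *Piwil1* (−32.7 to −14.3) remained more than 10 points lower in each alternative that gave a value. No paired analysis was possible because each karyotype had 1 library. Read counts were not used, so a low value at a cytosine cannot be told from a shallow one.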

Other observations

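Meiotic and germ cell genes outside the piRNA pathway gave a comparison. Of 10 such genes, 9 had at least 5 listed promoter CpGs, and 7 were lower and 2 higher in XX (71.7% and 28.2% over all promoters). The median difference of the 9 was −7.02 points, with median levels of 19.2% in XO and 15.3% in XX. *Brdt*, which encodes a testis bromodomain protein, was at 40.9% in XX and 66.1% in XO over 10 cytosines. *Sycp1*, which encodes the transverse filament protein of the synaptonemal complex, was at 4.77% in XX and 15.2% in XO over 39 cytosines. These were the 2 of the 9 that were at least 10 points lower in XX, beside 11.9% of all promoters. 1 gene, *Smc1b*, which encodes a meiotic cohesin subunit, was at least 10 points higher, as were 1.3% of all promoters, at 30.6% in XX and 20.4% in XO over 41 cytosines, and it was chosen after its values were seen. Its forward strand differed by −1.99 points and its reverse strand by 21.7 points.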
